A study of Homo sapiens with 6 samples.

Results

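The ATM and ATR checkpoint signalling genes are 10 genes that sense broken or single-stranded DNA and pass that signal on to the cell cycle. They were taken by symbol, through their Ensembl identifiers, from a table of 58299 genes, and all 10 were present and passed the filter on low counts. The kinases are ATM, ATR, CHEK1 and CHEK2. ATRIP, TOPBP1 and CLSPN act with ATR, and H2AX, MDC1 and TP53BP1 act at double-strand breaks.

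The cells were AC16, a human line with a ventricular heart muscle origin that arose from the fusion of adult heart cells with SV40-transformed fibroblasts. One group of 3 libraries came from cells given 100 nM CDDO-Me for 24 h and then 100 nM doxorubicin for 48 h. The other group of 3 libraries held RNA of cells in 0.1% DMSO over the whole 72 h. CDDO-Me (bardoxolone methyl) is a triterpenoid that releases the transcription factor NRF2 from KEAP1, and doxorubicin traps topoisomerase II on DNA and so leaves double-strand breaks. The labels define only the combined treatment against DMSO, so no change can be assigned to either drug. They say neither whether CDDO-Me stayed on the cells during doxorubicin nor whether replicates were separate cultures. The p-values therefore rest on a spread between libraries that may be purely technical.

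When both strands of DNA are cut, the MRE11, RAD50 and NBN proteins bring ATM to the ends. ATM phosphorylates the tail of the histone variant H2AX, MDC1 binds that tail and 53BP1 gathers there, while CHEK2 carries the signal away. Where replication stalls and leaves single strands, ATRIP places ATR on them, TOPBP1 switches ATR on, and claspin (CLSPN) presents CHEK1 to it. Both arms act mainly by phosphorylation of proteins that are already present, which RNA counts do not measure.

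H2AX RNA is unusual in how it ends, and this bears on what a poly(A)-selected library can count. Histone messages of S phase end at a short hairpin and carry no poly(A) tail, whereas H2AX is known to make both a hairpin-ended and a longer polyadenylated message. The hairpin was found in the reference H2AX transcript (GENCODE release 29; gene on chromosome 11, minus strand), at bases 555 to 570 of 1614, which leaves 1044 bases beyond it. It is printed with 5 flanking bases on each side and the hairpin in capitals.

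H2AX hairpin: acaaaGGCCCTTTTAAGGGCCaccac

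Poly(A) selection captures hairpin-ended RNA poorly, so the H2AX values that follow describe mainly the polyadenylated message, and how the total of both forms changed was not measured.

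The next sequences show the start regions of the member with the largest decrease, H2AX, and of ATM and CLSPN, which rose. They are RefSeq promoter windows (build GRCh38.p14), from 250 bases before to 50 bases after the annotated start, on the strand of the gene. A further ATM window, chr11:108223075-108223374, is not printed and holds 2 CCAAT boxes and no TTTGAA. Capitals in the printed windows mark CCAAT boxes on either strand, the TATAAA box of H2AX and a TTTGAA element of ATM. They also mark an E2F-type element of CLSPN that reads TTTCCCGC on the opposite strand. H2AX holds TTTGAA too, on the opposite strand at -164 to -159 from the start, left in lower case. TATAAA was in a window of 1 of the 10 genes, against 14% of all genes.

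H2AX, chr11:119095416-119095715, minus strand: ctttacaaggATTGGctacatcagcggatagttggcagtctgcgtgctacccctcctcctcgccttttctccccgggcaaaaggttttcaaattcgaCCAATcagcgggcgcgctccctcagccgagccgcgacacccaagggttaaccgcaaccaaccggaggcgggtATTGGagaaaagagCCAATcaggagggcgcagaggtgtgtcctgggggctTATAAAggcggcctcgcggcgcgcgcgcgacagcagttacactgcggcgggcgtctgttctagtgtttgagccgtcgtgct

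CLSPN, chr1:35769929-35770228, minus strand: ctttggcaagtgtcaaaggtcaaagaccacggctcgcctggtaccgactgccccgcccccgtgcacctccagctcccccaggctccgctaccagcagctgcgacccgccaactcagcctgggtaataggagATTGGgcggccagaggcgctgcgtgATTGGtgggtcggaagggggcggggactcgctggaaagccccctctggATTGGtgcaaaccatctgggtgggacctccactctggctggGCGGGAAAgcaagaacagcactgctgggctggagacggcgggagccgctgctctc

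ATM, chr11:108222817-108223116, plus strand: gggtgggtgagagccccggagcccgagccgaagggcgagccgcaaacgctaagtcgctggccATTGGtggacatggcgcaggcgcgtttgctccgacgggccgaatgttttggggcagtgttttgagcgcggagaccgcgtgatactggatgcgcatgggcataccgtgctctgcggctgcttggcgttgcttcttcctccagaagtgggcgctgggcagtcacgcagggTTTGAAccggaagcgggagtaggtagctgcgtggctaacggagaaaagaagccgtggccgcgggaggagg

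CCAAT (both strands) was in a window of 8 of the 10 genes, against 39.7% of all 27305 genes with a window. H2AX held 4 such boxes, and CLSPN, CHEK2 and 1 of the 3 windows of CHEK1 held 3. These 4 genes differed in direction: H2AX and CHEK1 fell, CLSPN rose and CHEK2 was not called. At least 3 boxes were seen in 3.26% of all windows. The E2F-type letters TTTCCCGC, TTTGGCGC, TTTCGCGC or TTTGCCGC were in the windows of 2 genes, CLSPN and TOPBP1, against 3.99% of all genes. The core of the cell cycle element CHR, searched as TTTGAA and also under the spelling TTTAAA and under the spelling TTCGAA, was in those of 3 genes, ATM, H2AX and MDC1, against 29% of all genes. The antioxidant response core TGACNNNGC, which NRF2 binds, was in none of the 14 windows, against 16.1% of all genes. No matches of different motifs overlapped there, and a match is a description of letters, not a binding site.

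Depth was 19732013 to 20193957 counts per library in treated cells and 17150259 to 19387496 in DMSO cells. The first principal component held 82.5% of the variance, and the biological coefficient of variation (common over genes) came to 4.82%. The cardiomyocyte label was little borne out by markers: TNNI3 had 0 counts in all libraries, and TNNT2, MYH6, MYH7, ACTC1, ACTN2, RYR2 and NKX2-5 averaged below 0.5 CPM in both groups, with only TTN and GATA4 above the filter. Fibroblast markers summed to 7389 to 7804 CPM per treated library and 16310 to 17673 CPM per DMSO library. COL1A1 was a large part of that sum, at 2764 and 8438 CPM on average in treated and DMSO cells. Of the 10, 9 were called lower and VIM was not called (log2 change -0.03). Of all tested genes, 31.2% were called lower and 32.3% higher. Endothelial markers summed to 11.4 to 12.1 CPM per treated library and 21.6 to 24.4 CPM per DMSO library. TEK made up most of that sum, at 7.01 and 20.7 CPM on average in treated and DMSO cells, and of the 4 tested markers it was called lower while PECAM1 (1.49 and 0.369 CPM) and KDR (1.84 and 1.07 CPM) were called higher (median log2 change 0.69). Leukocyte markers summed to 4.96 to 5.66 CPM per treated library and 2.22 to 3.14 CPM per DMSO library, and of 3 tested PTPRC was called higher and the others were not called. All libraries came from the same cell line, so these markers do not count separate cell types. In bulk RNA, a change in every cell and a change in the share of cells with a marker cannot be told apart.

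Of the 10 checkpoint genes, 3 rose (ATRIP, ATM and CLSPN), 6 fell (H2AX, TP53BP1, CHEK1, MDC1, TOPBP1 and ATR) and CHEK2 was not called, in edgeR's quasi-likelihood F test with a threshold of 0.05 on the Benjamini-Hochberg adjusted p. The background is high, since 63.5% of the 15575 tested genes were called, 32.3% higher and 31.2% lower, and 74.5% of the 6837 genes with a mean level in the range of these 10. The changes were small: only H2AX reached 2-fold, as did 15.5% of all tested genes. The median size of a change, without its sign, was 0.32 on the log2 scale over the 10 genes and 0.37 over all tested genes, and the medians with sign were -0.25 and 0.02. Treated and DMSO libraries did not overlap for 9 of the 10 genes, against 66.7% of all tested genes and 76.3% of those in the same range of levels. With libraries scaled by total counts only, the median over all genes became 0.15 on the log2 scale, and 4 of the 10 genes were then higher and 5 lower.

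**Figure D1:**
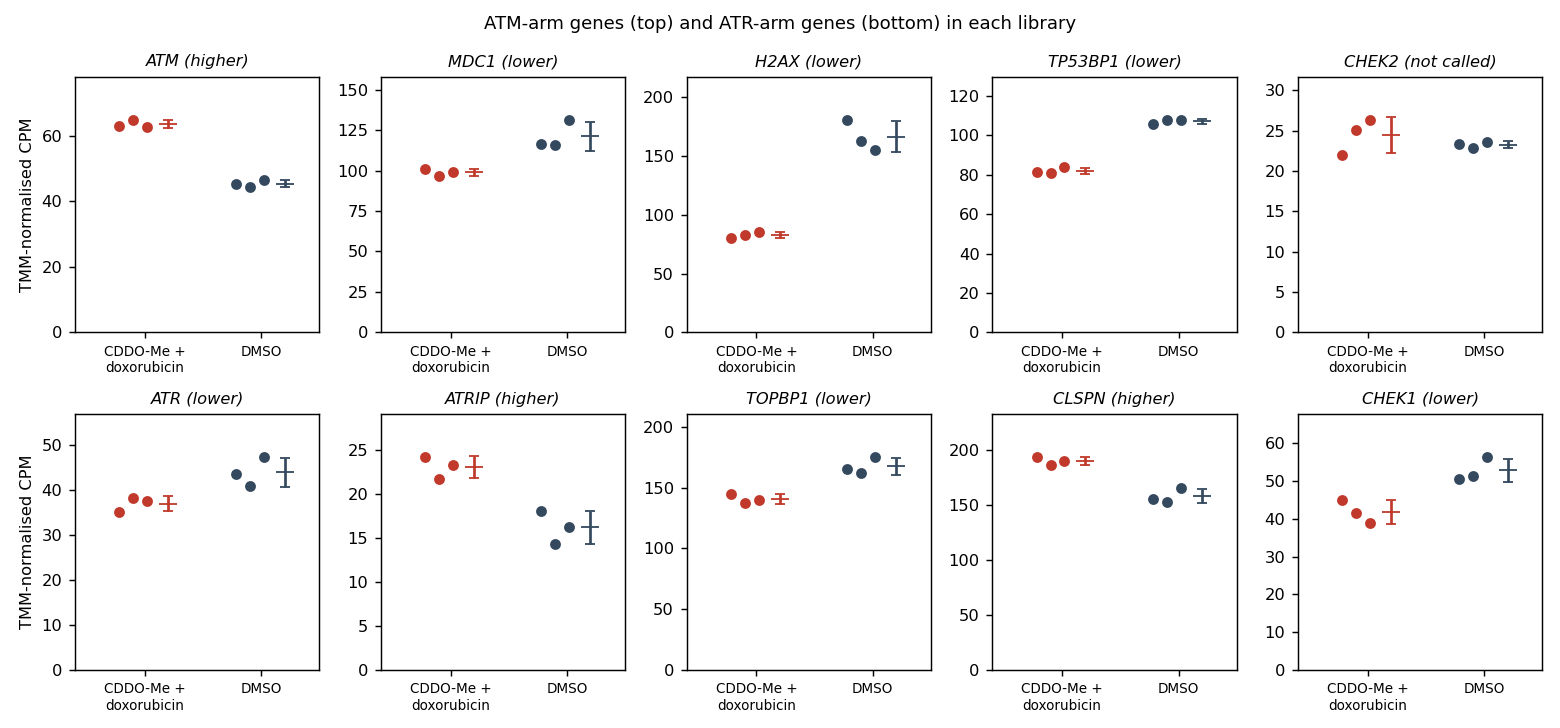
TMM-normalised CPM (y axes from 0, one panel a gene) in each library, with 3 treated libraries (red) left of 3 DMSO libraries (dark), and the mean ± SD (n = 3) beside the points; genes of the ATM arm are on top and of the ATR arm below. The groups are apart in 9 panels and overlap for CHEK2, and H2AX shows the widest gap.

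Among the genes of the double-strand break arm, ATM rose, while the genes of the chromatin proteins that act after it, H2AX, MDC1 and TP53BP1, fell. ATM (ENSG00000149311, GRCh38 chromosome 11, 108222484 to 108369102) had 63.2, 65.0 and 62.6 CPM (TMM-normalised counts scaled to a library of standard size) in treated cells, against 45.3, 44.5 and 46.7 CPM in DMSO cells. Every treated library lay above every DMSO library. The log2 change, treated minus DMSO, was 0.48 (SE 0.063; edgeR adjusted p = 7.54e-10), or 39.7% higher. ATM lies head to head with NPAT, a coactivator of histone gene transcription chosen here after its values were seen. The RefSeq starts of ATM lie 429 and 687 bases from that of NPAT, and the genes share 143 exon bases. NPAT was also called higher (log2 change 0.29), with 53.4 ± 3.28 CPM in treated cells and 43.5 ± 3.48 CPM in DMSO cells (SD, n = 3 each).

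H2AX (ENSG00000188486, chromosome 11, 119093854 to 119095467) encodes the histone variant that becomes the phosphorylated mark of breaks. It stood at 80.3, 82.7 and 85.4 CPM in treated cells, against 181, 163 and 155 CPM in DMSO cells. The treated libraries lay close together, at about the same low level, and the DMSO libraries were more spread. H2AX fell by 1.01 on the log2 scale (SE 0.055; edgeR adjusted p = 4.91e-25), larger in size than the change of 84.5% of tested genes. The log2 change lay between -1.06 and -0.88 over the 14 alternatives, so whether it reached 2-fold depended on the setting. H2AX shared no exon bases with another gene.

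MDC1 (ENSG00000137337, chromosome 6, 30699807 to 30717889), the scaffold that binds the phosphorylated H2AX tail, had 101, 96.5 and 98.9 CPM in treated cells, against 117, 116 and 131 CPM in DMSO cells. TP53BP1 (ENSG00000067369, chromosome 15, 43403061 to 43510728), which encodes 53BP1 and favours end joining over resection, had 81.6, 80.9 and 83.9 CPM in treated cells, against 106, 108 and 108 CPM in DMSO cells. For neither gene did the groups overlap, and the DMSO libraries of TP53BP1 differed from each other by little. MDC1 fell by 0.29 (SE 0.054; edgeR adjusted p = 3.45e-06) and TP53BP1 by 0.38 on the log2 scale (SE 0.054; edgeR adjusted p = 6.57e-09). TP53BP1 shared 28.7% of its exon bases with TUBGCP4 on the other strand, a gene that was also called lower (log2 change -0.24). Reads in shared exons were rarely counted, as described below, so the TP53BP1 values come mainly from 9259 of its 12991 exon bases. MDC1 shared 8.69% of its exon bases with its antisense gene MDC1-AS1, which had 0 counts in every library. As reads in shared exons were rarely counted, that 0 does not show that MDC1-AS1 is silent.

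CHEK2 (ENSG00000183765, chromosome 22, 28687743 to 28742422), the kinase downstream of ATM, was the one gene of the 10 without a call. It had 22.0, 25.1 and 26.4 CPM in treated cells, against 23.3, 22.9 and 23.7 CPM in DMSO cells. The groups overlapped: treated replicate 1 was the lowest of all 6 libraries and treated replicate 3 the highest. The log2 change was 0.07 (SE 0.086; edgeR adjusted p = 0.464), and scaling by total counts gave 0.20, which was called (edgeR adjusted p = 0.0381). Partial copies of CHEK2 elsewhere in the genome are known, so its reads could be split between copies.

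In the arm that answers single-stranded DNA, the kinase ATR and its partner ATRIP moved in opposite directions. ATR (ENSG00000175054, chromosome 3, 142449235 to 142578826) had 35.1, 38.4 and 37.7 CPM in treated cells, against 43.6, 41.1 and 47.4 CPM in DMSO cells. ATRIP (ENSG00000164053, chromosome 3, 48446710 to 48467645), which binds ATR and carries it to coated single strands, had 24.2, 21.7 and 23.3 CPM in treated cells, against 18.0, 14.3 and 16.2 CPM in DMSO cells. All treated libraries were below the DMSO libraries for ATR and above them for ATRIP. ATR fell by 0.25 on the log2 scale (SE 0.071; edgeR adjusted p = 0.0016), and scaling by total counts gave a change of -0.12 that was not called (edgeR adjusted p = 0.124). ATRIP had a log2 change of 0.51 (SE 0.095; edgeR adjusted p = 4.42e-06), the largest increase of the 10.

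ATRIP shares 30.5% of its exon bases with TREX1, a DNA exonuclease gene that lies wholly inside the ATRIP exons and had 0 counts in all libraries. Across the table, 1782 of the 1840 genes with all exon bases inside exons of other genes had 0 counts in every library, and the highest total among them was 48. Reads in shared exons were thus rarely counted, and the ATRIP values come from the remaining 3777 of its 5431 exon bases. A change of TREX1 RNA could thus not be assessed.

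TOPBP1 (ENSG00000163781, chromosome 3, 133598175 to 133662380), the activator of ATR, had 145, 138 and 140 CPM in treated cells, against 165, 162 and 175 CPM in DMSO cells. CLSPN (ENSG00000092853, chromosome 1, 35720218 to 35769967), the adaptor between ATR and CHEK1, had 193, 186 and 190 CPM in treated cells, against 156, 153 and 165 CPM in DMSO cells. Its treated libraries were all above the DMSO libraries, whereas those of TOPBP1 were all below. TOPBP1 fell by 0.25 (SE 0.050; edgeR adjusted p = 1.40e-05), and CLSPN rose by 0.27 on the log2 scale (SE 0.049; edgeR adjusted p = 3.59e-06).

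CHEK1 (ENSG00000149554, chromosome 11, 125625136 to 125676255), the kinase that ATR activates and that marks CDC25A for destruction, had 45.1, 41.4 and 38.8 CPM in treated cells, against 50.7, 51.4 and 56.4 CPM in DMSO cells. The groups did not overlap, and CHEK1 fell by 0.34 on the log2 scale (SE 0.068; edgeR adjusted p = 1.65e-05). CLSPN and CHEK1, whose proteins bind each other, thus had changes of opposite sign.

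**Figure D2:**
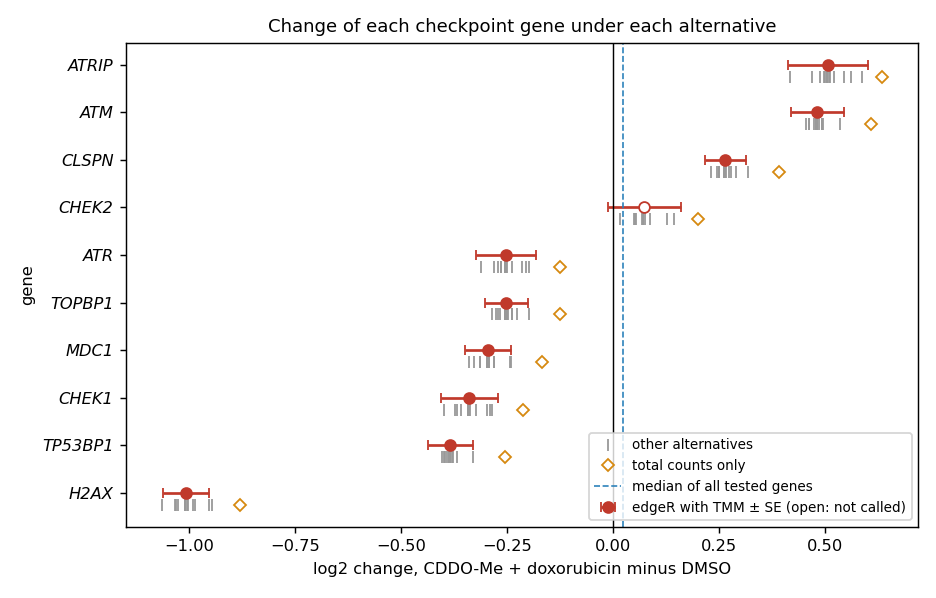
Log2 change (x axis, treated minus DMSO) of each checkpoint gene, with red points for edgeR with TMM and bars for the SE, grey ticks for 13 alternatives and orange diamonds for scaling by total counts only. The genes run from ATRIP at 0.51 to H2AX at -1.01; the diamonds lie to the right of the points, and for ATR and CHEK2 that scaling changed the call.

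Levels were compared between genes per kilobase of annotated exon, which can understate genes with long alternative exons. H2AX had the highest level in both groups, with 51.3 ± 1.58 CPM per kb in treated cells and 103 ± 8.18 CPM per kb in DMSO cells (SD, n = 3 each). CLSPN followed with 35.1 ± 0.66 and 29.2 ± 1.21 CPM per kb in treated and DMSO cells, then TOPBP1 with 19.3 ± 0.53 and 22.9 ± 0.94, and MDC1 with 12.3 ± 0.29 and 15.0 ± 1.10 CPM per kb. ATM had the lowest level, 2.65 ± 0.052 CPM per kb in treated cells and 1.90 ± 0.047 CPM per kb in DMSO cells.

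Between these ends the order was close. CHEK1 (6.37 CPM per kb), TP53BP1 (6.32) and CHEK2 (5.92) overlapped in treated cells, as did TP53BP1 (8.24) with CHEK1 (8.05 CPM per kb) in DMSO cells. ATRIP was above ATR in treated cells, at 4.24 against 2.96 CPM per kb, while in DMSO cells ATRIP at 2.98 and ATR at 3.52 CPM per kb overlapped. Counting only exon bases that no other gene shares, TP53BP1 stood at 8.87 CPM per kb in treated cells, against 6.45 for CHEK1, and ATRIP stood at 4.29 CPM per kb in DMSO cells, against 4.21 for ATR.

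Ratios within a library, which do not depend on scaling between libraries, were taken for the apical kinases and for the effector kinases. The ATM to ATR ratio of counts per kb was 0.939, 0.883 and 0.867 in treated cells, against 0.540, 0.565 and 0.514 in DMSO cells. The groups were far apart beside their spread, with means of 0.896 ± 0.038 and 0.540 ± 0.026 (SD, n = 3 each) and a log2 difference of 0.73. ATR shares 16.4% of its exon bases with the pseudogene EIF2AK1P1, which had 0 counts in every library. Reads in shared exons were rarely counted, so that 0 does not show that the pseudogene is silent. Per kb of unshared exon, ATM stood at 2.693 and ATR at 3.545 CPM in treated cells, against 1.927 and 4.215 CPM in DMSO cells. The size of the ratio thus depends on the lengths used, which are the same in both groups. The CHEK1 to CHEK2 ratio was 1.29, 1.04 and 0.930 in treated cells, against 1.37, 1.42 and 1.51 in DMSO cells, a log2 difference of -0.41 with more spread among the treated libraries. In neither ratio did the groups overlap, and each exact two-sided permutation test gave p = 0.1, the smallest value that 3 libraries against 3 allow.

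**Figure D3:**
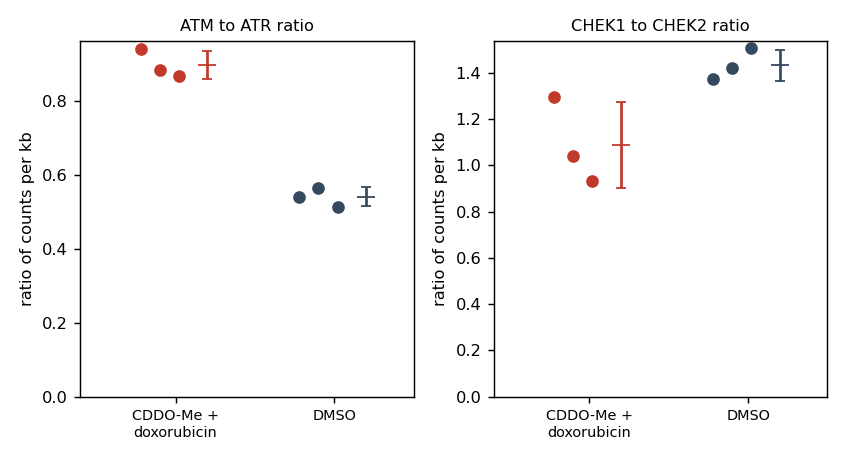
Ratio of counts per kilobase of ATM to ATR (left) and of CHEK1 to CHEK2 (right) in each library, treated libraries (red) left of DMSO libraries (dark), with the mean ± SD (n = 3) beside the points and y axes from 0. The ATM to ATR ratio is higher in all treated libraries and the CHEK1 to CHEK2 ratio lower in all of them.

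The genes around the 10 were read from 7 lists of the same pathway. Of 65 genes, 64 were tested, 15 were higher and 29 lower, and 20 had no call. Their median log2 change was -0.13. The background for this count and for each list below is the 63.5% of all tested genes that were called, 32.3% higher and 31.2% lower. The untested gene was FBXO6, at 0.499 ± 0.18 CPM in treated cells and 0.360 ± 0.13 CPM in DMSO cells (SD, n = 3 each).

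Upstream of ATM, all 5 genes of the MRN complex and ATM activation were called, 3 of them higher and 2 lower (median log2 change 0.35). The complex's own subunits did not move together. The nuclease gene MRE11 (61.5 ± 1.88 CPM in treated cells and 37.1 ± 3.51 CPM in DMSO cells, log2 change 0.73) and RAD50, the ATPase that bridges DNA ends (8.59 ± 0.46 and 4.90 ± 0.22 CPM, 0.81), rose. NBN, the subunit that binds ATM, fell by 0.47 on the log2 scale, with 70.8 ± 1.82 CPM in treated cells and 98.1 ± 4.08 CPM in DMSO cells. KAT5, the acetyltransferase that acts on ATM, fell by 0.60 on the log2 scale. RAD50 had 80 to 184 counts per library, and its exon overlap with other genes was not assessed.

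Of the 11 genes that load or activate ATR, 4 were higher, 2 were lower and 5 had no call (median log2 change 0.04). RAD9A, part of the clamp that recruits TOPBP1, rose (log2 change 0.46), while RAD17, which loads that clamp, fell (-0.26). ETAA1, the activator of ATR that works apart from TOPBP1, fell to 29.9 ± 1.85 CPM in treated cells, against 44.2 ± 2.03 CPM in DMSO cells (log2 change -0.56). The count of higher genes was 2 without DMSO replicate 1 or 2 or treated replicate 1 or 3, and 7 with total counts only, where RAD17 was not called (edgeR adjusted p = 0.0945).

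Among 17 genes that ubiquitinate chromatin at breaks or act with 53BP1 and BRCA1, 8 were lower, 1 was higher and 8 had no call (median log2 change -0.17). UBE2N, the ubiquitin-conjugating enzyme that works with RNF8, had the largest decrease (98.2 ± 2.61 CPM in treated cells and 150 ± 6.40 CPM in DMSO cells, log2 change -0.61). BABAM2 (-0.44) and ABRAXAS1 (-0.43), subunits of the BRCA1-A complex, and the ubiquitin ligase gene RNF168 (-0.23 on the log2 scale) fell too. RIF1, an effector of 53BP1, was not called (log2 change -0.05, edgeR adjusted p = 0.371). BRCA1 was the higher gene, by 0.13 (edgeR adjusted p = 0.0245), and its groups overlapped. Without DMSO replicate 1 or 2 or treated replicate 1 or 3, no gene of the list was called higher and BRCA1 had adjusted p between 0.0608 and 0.180. With total counts only, 4 of the 17 genes were higher and 5 lower, and RNF168 was not called (edgeR adjusted p = 0.211).

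The effectors included the largest changes of the pathway. Of 9 genes, 4 were higher, 4 were lower and 1 had no call (median log2 change -0.10). CDKN1A, encoding the cell cycle inhibitor p21, and MDM2, encoding a ubiquitin ligase, rose by 4.30 and 3.46 on the log2 scale. The phosphatase gene CDC25A, whose protein is destroyed once CHEK1 has phosphorylated it, rose by 0.24, whereas CDC25C, which opens mitosis, fell by 0.82 and the CDK1-inhibiting kinase gene WEE1 fell by 0.36 on the log2 scale.

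Of 8 tested genes listed under checkpoint silencing and recovery, 6 fell, 1 rose and 1 had no call (median log2 change -0.24). PPM1D, the phosphatase that removes the phosphates placed by ATM, was the one that rose, with 77.6 ± 1.40 CPM in treated cells and 24.3 ± 0.74 CPM in DMSO cells (log2 change 1.67, SE 0.067). The mitotic kinase genes PLK1 (-2.36) and AURKA (-1.62 on the log2 scale), which drive re-entry into mitosis, fell most.

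ATM and ATR belong to a family of large kinases that share folding helpers. Of 9 other kinases and helpers, 5 fell, 4 had no call and none rose (median log2 change -0.15). PRKDC, the end-joining kinase, had 750.3 ± 28.0 CPM in treated cells and 1092 ± 84.4 CPM in DMSO cells (log2 change -0.54). The helper genes TELO2 (-0.71) and RUVBL2 (-0.66 on the log2 scale) fell more. With total counts only, 1 gene of this list was higher.

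Other H2A variants are set beside H2AX here. Of these, H2AZ2 (-0.63) and H2AZ1 (-0.28 on the log2 scale), the replacement histones at gene starts, fell, and 2 of the 5 rose, among them MACROH2A1 (0.27), a variant of silent chromatin. The count of higher variants was 1 without DMSO replicate 2 or without treated replicate 1. H2AX thus had the largest decrease of the H2A variants listed, and the difference between them was not tested.

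Cell cycle genes also changed in the same comparison, and their 2 lists differed. All 12 genes of the G2/M list fell, against 31.2% of all tested genes called lower. Their median was -1.35 on the log2 scale. Summed levels were 1609 to 1711 CPM per treated library and 3628 to 3848 CPM per DMSO library. PLK1 and AURKA are also in the list for checkpoint silencing and recovery, so these lists are not separate. Of 16 S phase genes 8 rose, 3 fell and 5 were not called, with a median of 0.12 and summed levels of 4396 to 4628 CPM per treated library and 3990 to 4076 CPM per DMSO library. CCNE1, which encodes cyclin E1, rose by 1.54 and PCNA, the replication clamp, by 0.85, while the helicase subunit gene GINS2 fell by 0.82 on the log2 scale. Several checkpoint genes, among them CHEK1, CLSPN and H2AX, are known to follow the cell cycle, and the part of cell cycle position in their changes was not tested.

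**Figure D4:**
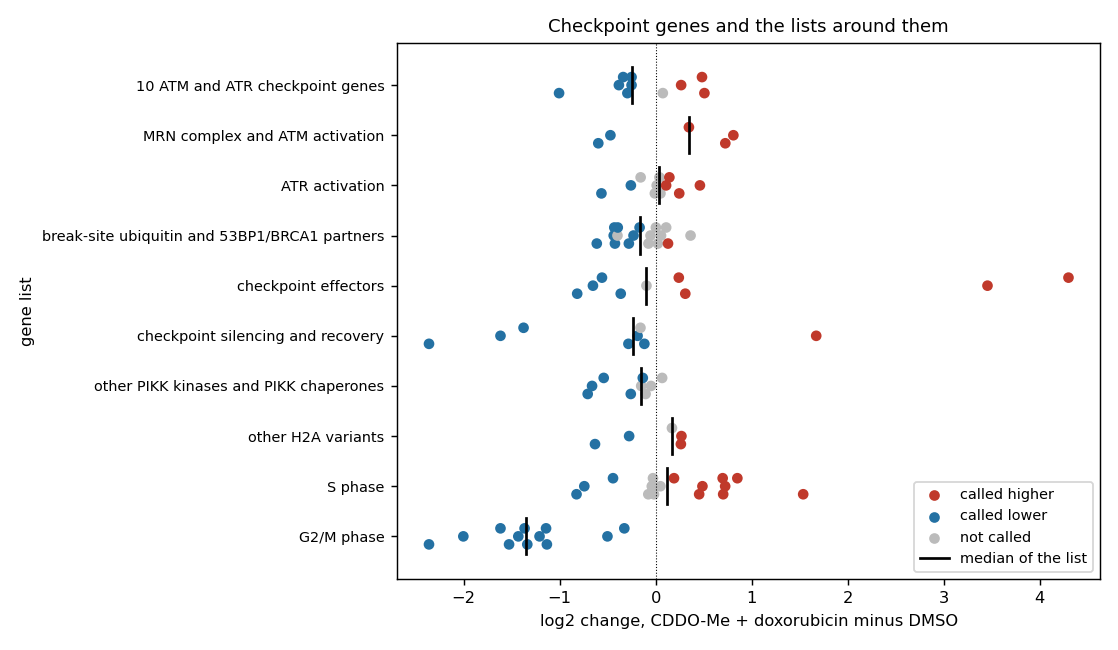
Log2 change (x axis, treated minus DMSO) of each tested gene, one row a list, with red points called higher, blue points called lower, grey points not called and a black bar at the median of the list. The 10 checkpoint genes lie between -1.01 and 0.51, while the effector list reaches 4.30 and all genes of the G2/M list lie below 0.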

How the data were processed

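The deposited file is 1 table of raw counts for 58299 Ensembl genes, with the 6 libraries as columns beside exon coordinates and gene lengths, per the file header. Libraries were unstranded and poly(A)-selected, per the labels' protocols. STAR, SAMtools, Subread and featureCounts and the hg38 (GRCh38) build are named in the submitters' processing notes, without versions. The sources used here do not give the counting options. Without strand information, a gene cannot be told from an overlapping partner where both are counted.

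Of the identifiers, 57717 had a symbol and 58179 were in GENCODE release 29, where all 10 members had the same start and end. Groups and replicate numbers came from the titles. Genes were filtered with filterByExpr (minimum count 10), which left 15575, and scaled by TMM. They were tested with edgeR 4.0.16 in R 4.3.3 (glmQLFit, glmQLFTest) over the whole table, with Benjamini-Hochberg adjusted p-values called below 0.05. The test was checked on simulated counts in which far fewer genes changed than were called here. That check does not cover the choice of scaling. The SE is the size of the log2 change over the square root of the F statistic. Replicate pairs differed by more than sampling noise (chi-square over degrees of freedom 3.00 to 4.01). Exon overlap used bedtools 2.31.1, other steps Python 3.11.15 with pandas 2.3.3, scipy 1.17.1 and matplotlib 3.10.9.

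The members and lists were chosen with earlier results of these data known. All 10 members were named, as were the 3 called genes with the largest change in each pathway list, called genes against the majority of their list (at most 3) and in any case PPM1D, RAD17, NBN, RNF168, BRCA1, RIF1, CDC25A, WEE1 and PRKDC; 1 further gene of this rule is not reported here. Results were recomputed with RLE, upper-quartile or total-count scaling, without the filter, with at least 1 CPM in 3 libraries, DESeq2 1.42.0, limma-voom (limma 3.58.1), a replicate block and every library omitted once. No set test was run.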

Additional observations from a re-analysis of the deposited data

How the results depend on the processing

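Over 14 alternatives for each of the 10 checkpoint genes, 138 of 140 values kept their direction and their side of the threshold, and none changed sign. The exceptions came with total counts only: ATR (log2 change -0.12, edgeR adjusted p = 0.124) lost its call and CHEK2 (0.20, edgeR adjusted p = 0.0381) gained one. That scaling moved the split of calls over all genes to 6355 higher and 3602 lower, against 5028 and 4865 with TMM. With each library left out in turn, 3 of the 10 genes were higher and 6 lower throughout, and the ATM to ATR log2 difference lay between 0.70 and 0.77. With the replicate number as a block, 3 were higher and 6 lower, and over all genes 4892 were higher and 4761 lower. The numbers did not pair the libraries: deviations of same-numbered libraries from their group means correlated at -0.0225, -0.00714 and -0.00718, and no library correlated best with its own number. Paired by number, the ATM to ATR and CHEK1 to CHEK2 log2 differences were 0.73 and -0.41 (exact sign-flip p = 0.25, the smallest 3 pairs allow).

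Among the 7 pathway lists, the count of higher genes moved most for ATR activation and break-site partners. Genes higher among those that load or activate ATR numbered 4, 2 with no filter and 7 with total counts only, which left 1 lower against 2. Break-site partners had 1 higher and 8 lower gene, 0 higher with no filter, and 4 higher and 5 lower with total counts only; the other kinases and helpers had 0 higher and then 1. With no filter BRCA1 was not called (edgeR adjusted p = 0.0960). Depth did not limit the 10 genes, which had 237 to 4021 counts per library.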
